A study of Rattus norvegicus with 16 samples.

Results

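The UDP-glucuronosyltransferase (Ugt), sulfotransferase (Sult) and carboxylesterase (Ces) genes of the liver were followed in male obese Zucker rats whose dietary protein was soy protein isolate (SPI) or casein (CAS). They were chosen by symbol, as rows that begin with Ugt1, Ugt2 or Ugt3, with Sult and a digit, or with Ces and a digit, and that had a mean of at least 5 over the 16 libraries, and 29 of 9645 rows met this rule. Of these, 5 were Ugt1 genes, 6 Ugt2, 4 Sult1, 3 Sult2, 1 Sult4, 3 Ces1 and 7 Ces2. Ces5a, at 0 in every library, and Sult5a1, with a mean of 2.35 and a value above 0 in 7 libraries, fell below the mean and were left out.

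The SPI group comprised 8 male obese Zucker rats that ate a diet based on soy protein isolate with a high content of isoflavones for 16 weeks. The CAS group comprised 8 male obese Zucker rats that ate a casein-based diet for the same 16 weeks. All 16 rats arrived at 6 weeks of age, were caged singly after a week of acclimation and ate freely. Both groups carry the obese Zucker genotype, a loss of the leptin receptor as background, so neither is a lean control, and 1 RNAseq library was made per rat.

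Glucuronosyltransferases sit in the endoplasmic reticulum and transfer glucuronic acid from UDP-glucuronic acid to bilirubin, steroids, bile acids, drugs and plant phenols. Cytosolic sulfotransferases transfer sulfate from 3′-phosphoadenosine-5′-phosphosulfate (PAPS), the Sult1 enzymes mostly to phenols and the Sult2 enzymes mostly to hydroxysteroids and bile acids. Carboxylesterases hydrolyse esters and amides in the endoplasmic reticulum or in plasma, and some hydrolyse stored lipid. Soy isoflavones are phenols that circulate mainly as glucuronides and sulfates, and several rat sulfotransferases and glucuronosyltransferases are known to differ between male and female liver.

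Each value below is a deposited normalized count, that is, the reads of a gene divided by a size factor of its library, and each log2 fold change is SPI over CAS on quantile-normalized log2(value + 1). A gene is called when its adjusted p is under 0.05 from limma with the Benjamini-Hochberg adjustment over all 8004 genes tested. The p-values set the difference between the diets against the spread between rats within a diet, at 1 library each. The libraries held 14901365 to 21517766 reads from SPI-fed rats and 17602306 to 21632979 reads from CAS-fed rats. The 29 genes took a median of 0.322% of reads (range 0.282 to 0.345%) in SPI-fed rats and 0.278% (0.263 to 0.315%) in CAS-fed rats. In a principal component analysis of all genes, 3 of the CAS-fed rats (CAS 4, CAS 6 and CAS 7) fell between the others and the SPI-fed rats on the first component. In whole liver, fewer cells of a type and less RNA per cell cannot be told apart.

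All 29 genes passed the filter on low values, and 3 were higher in SPI-fed rats, Ugt2a3, Ugt2b1 and Sult2a1. The background over all genes was 1.97% called higher and 2.90% called lower (4.87% in either direction). None of the 29 was called lower by limma, edgeR or DESeq2, and 0 had a lower level at an unadjusted p under 0.05, against 8 that had a higher level at that p, where 8.82% of all genes were higher and 10% lower. The study's own thresholds, a fold over 1.3 with p under 0.05 before adjustment, were met by 6 genes that were higher (Ces2e, Sult1c3 and Ces1c beside the 3 called) and by 0 that were lower, where 5.97% of all genes were higher and 6.75% lower. The log2 fold change was above 0 in 17 of the 29 and below 0 in 12, with a median of 0.12, against a median of 0.01 and 51.4% above 0 over all genes tested. On the deposited scale the median was 0.21 for the 29 genes and -0.00 for all genes. The diets overlapped on the deposited values in each of the 29 genes. Over all genes, 0.350% had every SPI-fed rat above every CAS-fed rat and 0.550% had every SPI-fed rat below.

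**Figure D1:**
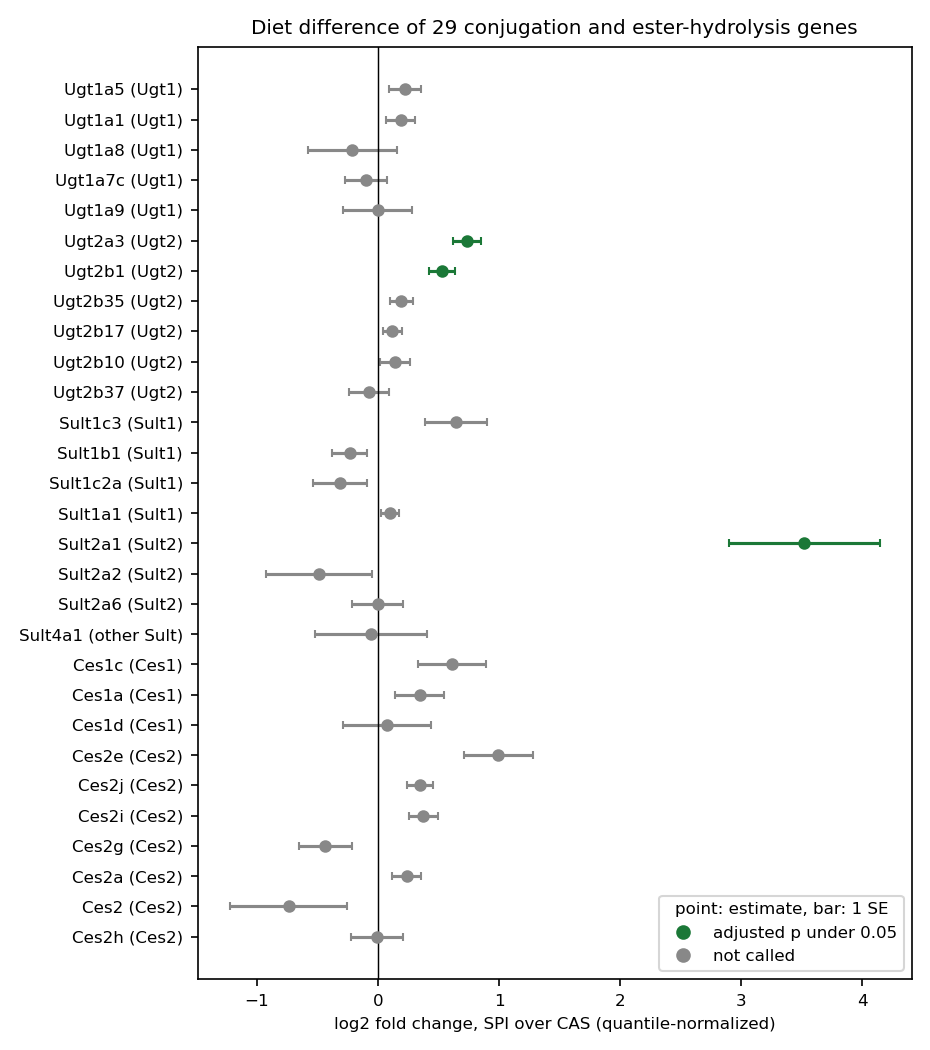
Log2 fold change (SPI over CAS) with its standard error for each of the 29 genes, grouped by subfamily; green marks genes with an adjusted p under 0.05 from limma and grey the others. Sult2a1 lies at 3.52 and the called Ugt2 genes at 0.73 (Ugt2a3) and 0.53 (Ugt2b1), while no gene of Ugt1, Sult1, Ces1 or Ces2 is green.

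The Ugt2 subfamily conjugates steroids, bile acids and phenols, and 2 of its 6 measured genes were up-regulated in SPI-fed rats. Ugt2a3, whose human counterpart glucuronidates bile acids, had a lowest, median and highest normalized count of 1546, 1959.8 and 2586 in SPI-fed rats, against 900.2, 1066 and 1556 in CAS-fed rats. Of the SPI-fed rats, 7 of 8 lay above every CAS-fed rat, and the diets met only where SPI 1, the lowest on soy protein, lay just under CAS 6, the highest on casein. The mean was 2021 ± 388 in SPI-fed rats and 1155 ± 214 in CAS-fed rats (SD, n = 8 each), a ratio of 1.75, and the log2 fold change was 0.73 (SE 0.12, adjusted p = 0.000915 from limma).

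Ugt2b1, which glucuronidates morphine and steroids in the rat, had a lowest, median and highest normalized count of 4999, 5822 and 9124 in SPI-fed rats, against 2864, 3999 and 5173 in CAS-fed rats. SPI 8 stood well above the other rats, and only SPI 7, the lowest on soy protein, lay below CAS 6, the highest on casein, so that 7 of 8 SPI-fed rats lay above every CAS-fed rat. The mean was 6203 ± 1286 in SPI-fed rats and 3976 ± 649 in CAS-fed rats (SD, n = 8 each), a ratio of 1.56, and the log2 fold change was 0.53 (SE 0.11, adjusted p = 0.00644 from limma). Without SPI 8 it was 0.45, and Ugt2b1 was called in each of the 16 fits that left out 1 library.

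The other Ugt2 genes were not called by limma on quantile-normalized values, with log2 fold changes of 0.19 for Ugt2b35, 0.14 for Ugt2b10, 0.12 for Ugt2b17 and -0.07 for Ugt2b37. Ugt2b17, a steroid glucuronosyltransferase, had a lowest, median and highest normalized count of 6927, 7900.4 and 9348 in SPI-fed rats and 5614, 6514 and 8218 in CAS-fed rats. The overlap rested on CAS 1 and CAS 7, and 6 of 8 CAS-fed rats lay below every SPI-fed rat. Its adjusted p was 0.418 from limma on quantile-normalized values and 0.0438 from limma on the deposited scale, where its log2 fold change was 0.30, and over all 10 alternatives the adjusted p ranged from 0.0281 to 0.652. In the reference table Ugt2b17 is an older name of 2 genes, Ugt2b15 and Ugt2b1, so its reads and those of Ugt2b1 may not be fully separate. Ugt2b1 and Ugt2b10 are neighbours there, as are Ugt2b37 and Ugt2b35.

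Within each library, the share of the summed Ugt2 signal gave a second view that does not depend on the scaling between libraries. Ugt2a3 held a lowest, median and highest share of 7.89, 8.66 and 12.5% in SPI-fed rats, against 5.46, 6.93 and 8.34% in CAS-fed rats. Ugt2b1 held 24.8, 26.7 and 34.1% in SPI-fed rats, against 20.8, 23.4 and 27.7% in CAS-fed rats. Ugt2b17 held 31.3, 36.8 and 39.2% in SPI-fed rats, against 35.8, 38.9 and 42.0% in CAS-fed rats. The shares of both called genes lay toward the upper end in SPI-fed rats and those of Ugt2b17, Ugt2b35, Ugt2b10 and Ugt2b37 had lower medians there, with overlap between the diets for each gene. Shares of one sum are not independent of each other, and no test was made on them.

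**Figure D2:**
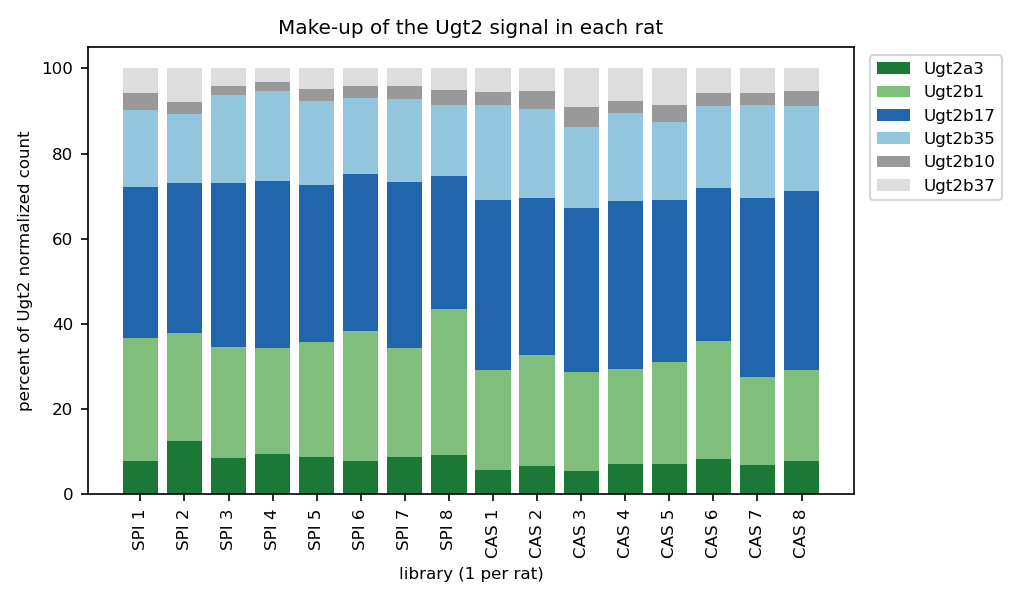
Share of the summed Ugt2 signal (percent, not per length) held by each of the 6 Ugt2 genes in each rat, SPI left of CAS. The median share of Ugt2a3 is 8.66% in SPI-fed rats and 6.93% in CAS-fed rats, and that of Ugt2b1 26.7% and 23.4% in the same order.

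The Ugt1 genes are built from alternative first exons joined to common last exons, so that reads from the shared exons cannot be assigned to 1 gene, and the values of single Ugt1 genes are uncertain. None of the 5 was called by limma, edgeR or DESeq2, and 0 had an unadjusted p under 0.05. Ugt1a5 had the smallest p, with a lowest, median and highest normalized count of 577, 638 and 849 in SPI-fed rats and 441, 558 and 843 in CAS-fed rats. The 2 ranges all but coincided at the top, where SPI 6 and CAS 3 lay side by side, and the log2 fold change was 0.22 (SE 0.14, adjusted p = 0.390 from limma). Ugt1a1, the enzyme that conjugates bilirubin, differed by 0.19 on the log2 scale (limma adjusted p = 0.433), while Ugt1a8, Ugt1a7c and Ugt1a9 lay between -0.22 and -0.00. Ugt1a9 was above 0 with edgeR and with DESeq2 (0.05 in both), so its direction was not settled.

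In the Sult2 subfamily, hydroxysteroid and bile acid sulfotransferases that are more abundant in the liver of female rats, 1 of 3 genes was up-regulated in SPI-fed rats. The 250 bases upstream of the start of each gene are shown because the 3 windows are nearly alike, while 1 of the 3 genes was called. They come from RefSeq on the build GRCr8, and all lie on the minus strand of chromosome 1, at chr1:84638948-84639197 for Sult2a1, chr1:84097809-84098058 for Sult2a6 and chr1:85104533-85104782 for Sult2a2. Capitals mark GGGTCA followed at once by TGAACT, an inverted repeat known from the rat Sult2a1 promoter as an element of the bile acid receptor FXR.
Sult2a1: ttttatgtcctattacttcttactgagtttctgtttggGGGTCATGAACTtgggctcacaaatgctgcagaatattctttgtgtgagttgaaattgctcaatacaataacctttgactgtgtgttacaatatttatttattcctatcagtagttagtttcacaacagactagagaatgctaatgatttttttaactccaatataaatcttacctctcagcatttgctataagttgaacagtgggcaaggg
Sult2a6: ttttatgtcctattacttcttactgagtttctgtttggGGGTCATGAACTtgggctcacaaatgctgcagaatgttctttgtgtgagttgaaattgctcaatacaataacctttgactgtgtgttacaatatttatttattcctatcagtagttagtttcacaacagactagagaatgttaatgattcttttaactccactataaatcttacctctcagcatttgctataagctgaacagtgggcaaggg
Sult2a2: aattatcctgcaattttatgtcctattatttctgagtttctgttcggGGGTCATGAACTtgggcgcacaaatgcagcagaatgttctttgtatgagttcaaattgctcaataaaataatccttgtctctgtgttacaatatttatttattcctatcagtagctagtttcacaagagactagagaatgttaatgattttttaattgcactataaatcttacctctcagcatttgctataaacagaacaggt

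The repeat begins 212 bases before the start of Sult2a1 and of Sult2a6 and 203 bases before that of Sult2a2. Searched on both strands, it was found in 3 of the 25 windows of genes described here and in 8 of 33469 windows in all (0.0239%). The 3 are close copies of one another, so they are not independent matches. A further match was in the window of LOC134485278, which lies between Sult2a6 and Sult2a1 in the reference table. The windows of Sult2a1 and Sult2a6 are identical at 245 of 250 bases (98%), and differ at A74G, C179T, T188C, A200C and T233C, with the base of Sult2a1 first, that of Sult2a6 last, and positions counted from the 5′ end of the window. Those of Sult2a1 and Sult2a2 are identical at 215 of 237 aligned bases (90.7%). In the reference table Sult2a1 and Sult2a2 are neighbours, and such close copies may share reads. GCGTG, the core of the aryl hydrocarbon receptor element, was in 4 of the 25 windows (16%), none of them of a called gene, against 25.9% of all windows. TTGCNNAA, a form of the C/EBP element of liver promoters, was in 11 of the 25 (44%), the 3 Sult2 windows among them, against 9.22% of all windows. The windows of the called genes Ugt2a3 and Ugt2b1 had no match to it. The 11 also include related neighbours (Ces1d, Ces1c and Ces1a, and Ugt2b37 and Ugt2b35), so they are not independent matches either. A match of letters is a description and says nothing of whether a factor binds there.

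Sult2a1 had a lowest, median and highest normalized count of 49.4, 119.7 and 206 in SPI-fed rats, against 0, 10.2 and 55.9 in CAS-fed rats. CAS 8 was at 0 and CAS 7 and CAS 6 were the highest on casein, and SPI 5 alone of the SPI-fed rats lay below CAS 7. The log2 fold change of 3.52 (SE 0.62, adjusted p = 0.00298 from limma) ranged from 3.21 without CAS 8 to 3.90 without CAS 7, and from 2.59 to 3.71 under the other alternatives, with 2.85 from edgeR and 2.84 from DESeq2. The ratio of the means was 7.12, and CAS levels this near 0 make every such ratio imprecise.

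Sult2a6 and Sult2a2 were not called, and the difference between these genes and Sult2a1 was not tested. Sult2a6 had a lowest, median and highest normalized count of 3692, 5163 and 9011 in SPI-fed rats, against 3001, 4550.1 and 6766 in CAS-fed rats, and the ranges overlapped over most of their length. Its log2 fold change was -0.00 (SE 0.21, adjusted p = 0.994 from limma) on quantile-normalized values and 0.15 on the deposited scale, so its sign depended on the scaling. Sult2a2 had 9.62, 34.1 and 122 in SPI-fed rats, against 35.5, 50.8 and 106 in CAS-fed rats, with both the highest and the lowest rats on soy protein (log2 fold change -0.49, SE 0.44, adjusted p = 0.592 from limma). Of the summed Sult2 signal, Sult2a1 made up 1.23 to 3.17% in SPI-fed rats and 0 to 1.80% in CAS-fed rats, and Sult2a6 made up at least 94.4% in SPI-fed rats and at least 96.4% in CAS-fed rats.

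**Figure D3:**
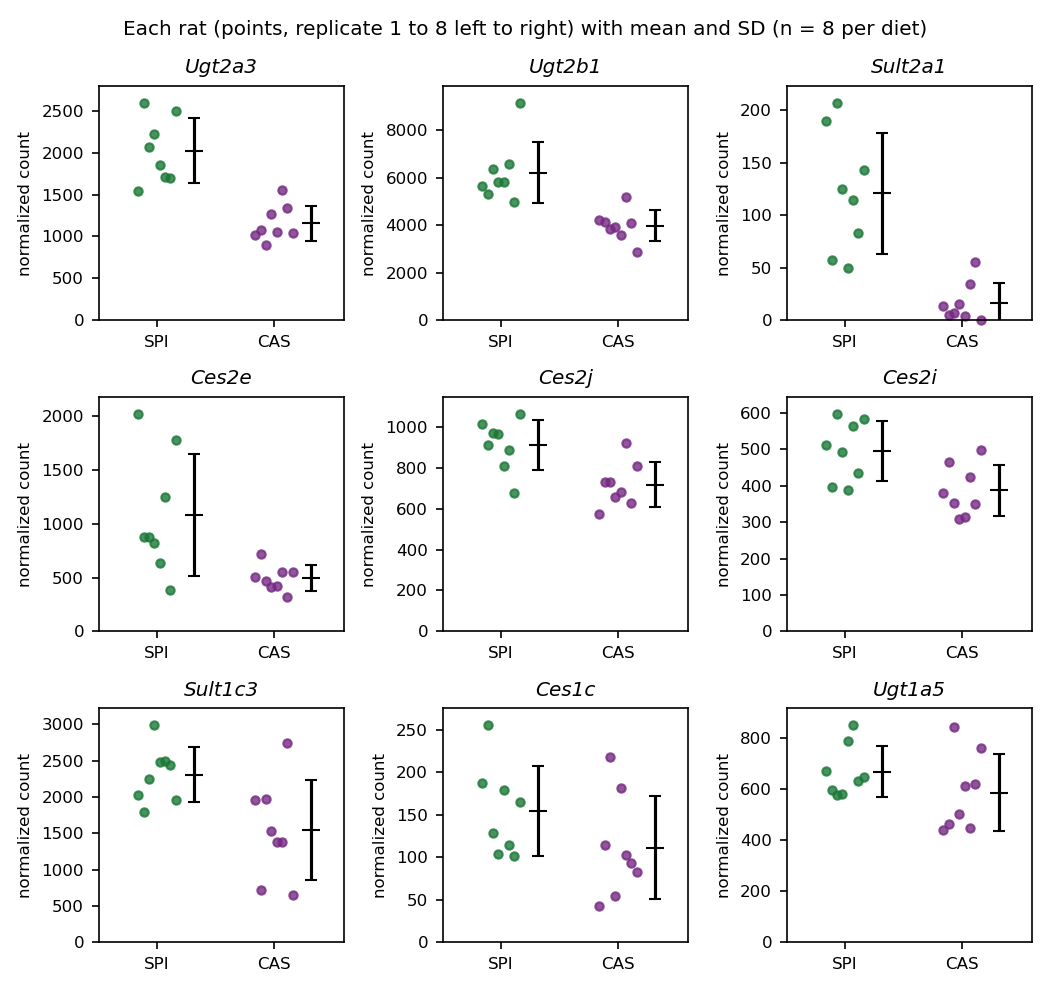
Normalized count in each rat (points, replicates 1 to 8 from left to right, SPI left of CAS) with the mean and SD (n = 8 per diet) for 9 of the genes; each panel has its own linear axis from 0. Ugt2a3, Ugt2b1 and Sult2a1 each have 7 of 8 SPI-fed rats above every CAS-fed rat, whereas the diets share most of their range in Ces1c and Ugt1a5.

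None of the 4 Sult1 genes, which sulfate phenols and thyroid hormones, was called by limma or edgeR, while DESeq2 called 1, Sult1a1. Sult1c3 had the smallest p of the 4, the only one under 0.05 unadjusted, with a lowest, median and highest normalized count of 1799, 2341 and 2984 in SPI-fed rats and 655, 1459 and 2744 in CAS-fed rats. CAS 2 and CAS 8 were far below every SPI-fed rat, while CAS 7 lay above all SPI-fed rats but SPI 4. The mean was 2305 ± 378 in SPI-fed rats and 1543 ± 689 in CAS-fed rats (SD, n = 8 each), and the log2 fold change was 0.64 (SE 0.26, adjusted p = 0.178 from limma).

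Sult1a1, the main phenol sulfotransferase of the liver, had a lowest, median and highest normalized count of 15242, 16624 and 23475 in SPI-fed rats, against 11809.9, 13986 and 15867 in CAS-fed rats. All but the lowest SPI-fed rats, SPI 1 and SPI 6, lay above every CAS-fed rat, and SPI 3 stood apart at the top. With limma, the log2 fold change was 0.30 on the deposited scale (adjusted p = 0.0499) and 0.10 on quantile-normalized values (adjusted p = 0.489), and over all 10 alternatives the adjusted p ranged from 0.0299 to 0.619. The 100 genes with the highest levels had a median log2 fold change of 0.18 on the deposited scale and -0.02 on quantile-normalized values, so abundant genes as a group moved with the scaling, whereas the median of all genes was near 0 on both. Sult1b1, which sulfates thyroid hormones, and Sult1c2a had log2 fold changes of -0.23 and -0.32 (adjusted p = 0.406 and 0.469 from limma).

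**Figure D4:**
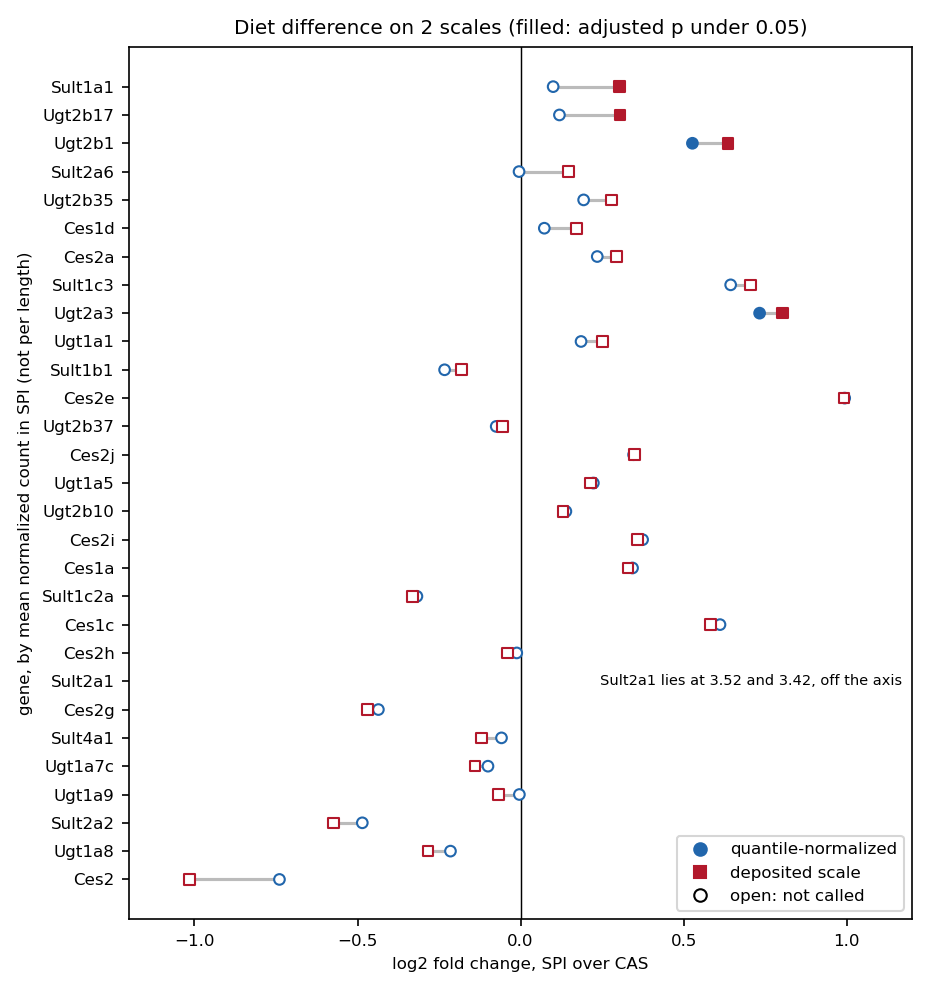
Log2 fold change (SPI over CAS) of the 29 genes on quantile-normalized values (circles) and on the deposited scale (squares), filled where the adjusted p from limma is under 0.05. Sult1a1 and Ugt2b17 are filled only on the deposited scale, at 0.30 each, and Sult2a6 is at -0.00 and 0.15.

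Sult4a1, a sulfotransferase known from brain, was the only Sult outside both subfamilies. It had a lowest, median and highest normalized count of 20.0, 52.8 and 256 in SPI-fed rats and 25.0, 49.9 and 148 in CAS-fed rats. SPI 1 was the highest by far and the medians were close, and the log2 fold change was -0.06 (SE 0.46, adjusted p = 0.962 from limma). Its sign was positive with edgeR (0.17) and DESeq2 (0.18).

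The Ces2 enzymes hydrolyse drug esters and acylglycerols, and 0 of the 7 genes was called by limma, against 1 by edgeR (Ces2e) and 2 by DESeq2 (Ces2e and Ces2j). At an unadjusted p under 0.05, 3 of the 7 had higher levels in SPI-fed rats (Ces2e, Ces2j and Ces2i) and 0 had lower levels, beside 8.82% higher and 10% lower over all genes. Ces2e had a lowest, median and highest normalized count of 382, 878 and 2013 in SPI-fed rats, against 315, 484 and 715 in CAS-fed rats. SPI 1 and SPI 8 were the highest and SPI 7 the lowest on soy protein, and 6 of 8 SPI-fed rats lay above every CAS-fed rat. The mean was 1079.7 ± 563 in SPI-fed rats and 492 ± 119 in CAS-fed rats (SD, n = 8 each), a ratio of 2.19, and the log2 fold change was 0.99 (SE 0.29, adjusted p = 0.0580 from limma). Without SPI 7 the log2 fold change was 1.18 and the adjusted p was 0.00662 from limma, and over all 16 fits that left out 1 library the adjusted p ranged up to 0.102. With the replicate number as a block it was 0.00897 from limma, and over the 10 other alternatives it ranged from 0.00349 to 0.172.

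Ces2j had a lowest, median and highest normalized count of 675, 939 and 1061 in SPI-fed rats, against 574, 707 and 921 in CAS-fed rats (log2 fold change 0.35, SE 0.11, adjusted p = 0.0594 from limma). Ces2i had 389.6, 502 and 596 in SPI-fed rats, against 309.9, 366 and 499 in CAS-fed rats (log2 fold change 0.37, SE 0.12, adjusted p = 0.0819 from limma). In both genes the upper SPI-fed rats exceeded every CAS-fed rat while the lower ones lay within the casein range. Ces2j was called without CAS 6 or without SPI 7, and Ces2i without CAS 8 (adjusted p = 0.0441 from limma, the lowest of the 16 fits that left out 1 library, which reached 0.158).

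The other Ces2 genes pointed both ways. Ces2a, listed in the reference table as a transcribed pseudogene, had a log2 fold change of 0.23, and Ces2g and the row named Ces2 had -0.44 and -0.74 (adjusted p = 0.279 and 0.432 from limma). Ces2 had few reads, with a highest normalized count of 19.0 in SPI-fed rats and 28.3 in CAS-fed rats, and SPI 1 was at 0. Ces2h, at -0.01, was above 0 without the libraries numbered 2 and 8 (0.04). Of the summed Ces2 signal, Ces2e held a lowest, median and highest share of 10.6, 17.1 and 32.8% in SPI-fed rats, against 9.59, 12.4 and 14.9% in CAS-fed rats, while Ces2g held 0.916, 1.92 and 3.87% in SPI-fed rats, against 2.82, 3.73 and 5.32% in CAS-fed rats.

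Of the Ces1 enzymes, 0 of 3 was called by limma, edgeR or DESeq2, and 1 had an unadjusted p under 0.05. Ces1c, which is secreted into plasma, had a lowest, median and highest normalized count of 102, 147 and 255 in SPI-fed rats and 43.0, 98.1 and 218 in CAS-fed rats. CAS 1 and CAS 4 lay well below all SPI-fed rats, but CAS 3 and CAS 5 lay among the upper ones, and the log2 fold change was 0.61 (SE 0.28, adjusted p = 0.240 from limma). Ces1d, Ces1c and Ces1a follow one another in the reference table, and for Ces1a the log2 fold change was 0.34 (limma adjusted p = 0.378). Ces1d, known in the mouse as a triacylglycerol hydrolase of the liver, ranged from 1757 to 6521 in SPI-fed rats and from 1348 to 7513 in CAS-fed rats. That spread within each diet was far larger than the log2 fold change of 0.07 (SE 0.37, adjusted p = 0.942 from limma).

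**Figure D5:**
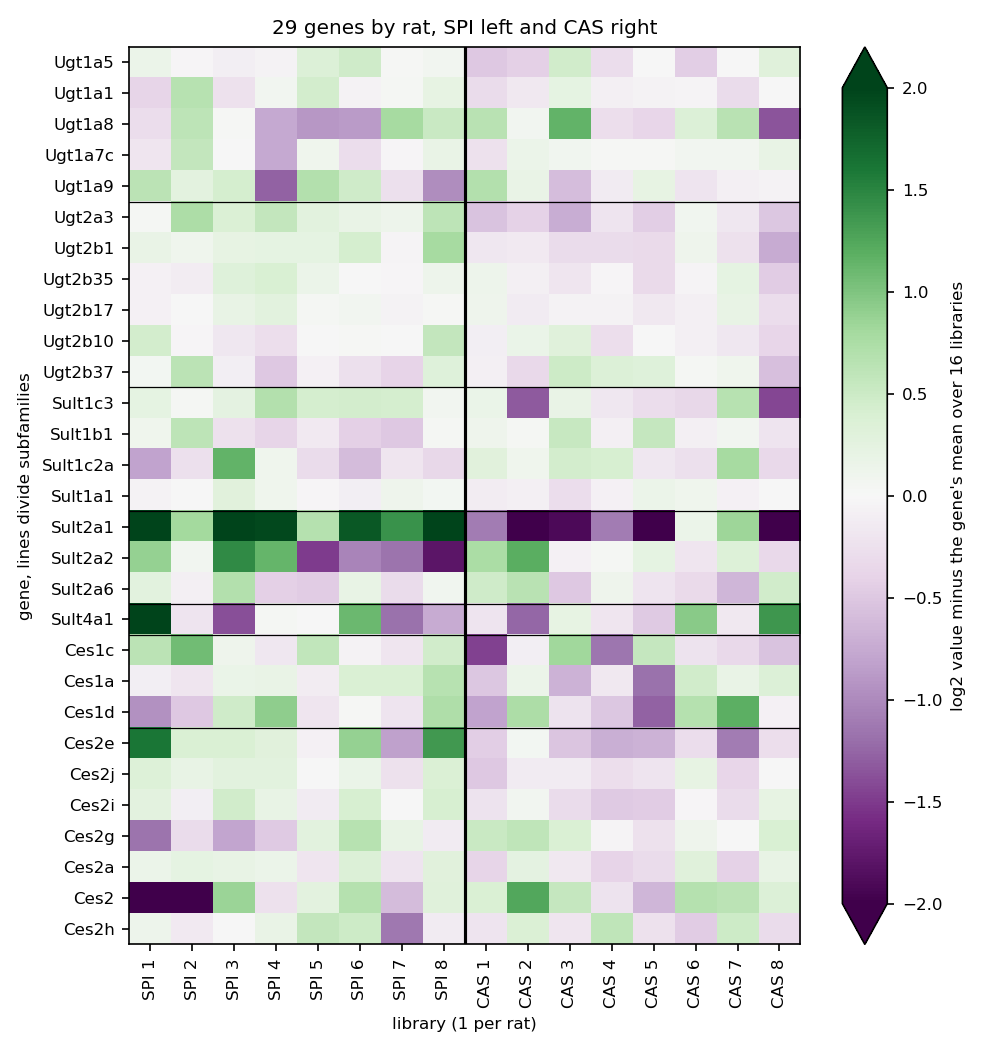
Quantile-normalized log2 value of each of the 29 genes in each rat, as the difference from the mean of that gene over 16 libraries, SPI left and CAS right; colours end at 2 in each direction. Sult2a1 has the largest log2 fold change of the 29 (3.52), with CAS 6 and CAS 7 nearest to the SPI-fed rats, while Ces1d and Sult4a1 vary within each diet.

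The rats did not rank alike across the 29 genes. SPI 3 had the highest value of all 16 rats in 8 genes and CAS 8 the lowest in 8 genes. Among CAS-fed rats, CAS 6 lay nearest to the SPI-fed rats in Ugt2a3 and Ugt2b1 and CAS 7 in Sult2a1, and both lay between the diets on the first principal component, which was computed from all genes. The median SD on the log2 scale was 0.37 in SPI-fed rats and 0.36 in CAS-fed rats over the 29 genes, against 0.38 in both diets over all genes tested.

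Other families of xenobiotic enzymes were set beside these genes. Of 31 Cyp1, Cyp2 and Cyp3 genes tested, 2 were called higher and 4 lower by limma (median log2 fold change 0.09), 5 and 4 by edgeR and 6 and 4 by DESeq2. Of 19 Gst and Mgst genes, 0 were called higher and 2 lower (median 0.02) by limma, with 1 higher and 3 lower at an unadjusted p under 0.05. DESeq2 called 2 Gst and Mgst genes higher and 2 lower, and edgeR 0 higher and 2 lower. Over all 8004 genes tested, 1.97% were called higher and 2.90% lower by limma, against 206 and 241 genes by edgeR and 310 and 364 by DESeq2. At an unadjusted p under 0.05 from limma, 8.82% were higher and 10% lower. These figures also stand beside the counts of the lists that follow. No test compared the families.

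The genes that feed and clear the same conjugates were also counted. Of 6 genes listed for the supply of UDP-glucuronic acid, 0 were called by limma and 1 by edgeR and DESeq2. The list held Ugdh, Ugp2, Slc35d1, Slc35b1, Slc35a3 and Slc35b4, and not all of these carriers are known to move UDP-glucuronic acid. The smallest p was that of Ugdh, the dehydrogenase that makes UDP-glucuronic acid (log2 fold change 0.25, unadjusted p = 0.00888 and adjusted p = 0.105 from limma). Of 4 genes that make or carry PAPS, 0 were called by limma and 1 by edgeR and DESeq2, and Slc35b2, a PAPS carrier of the Golgi, had a log2 fold change of -0.35 (unadjusted p = 0.00298 and adjusted p = 0.0562 from limma). Of 3 hydrolases that remove conjugates, led by Gusb, the lysosomal beta-glucuronidase (log2 fold change -0.22), 0 were called by limma, edgeR or DESeq2 and 0 had an unadjusted p under 0.05. Of 9 other ester hydrolases, led by Pon1 (log2 fold change 0.19, adjusted p = 0.129 from limma), 0 were called by limma and 1 by edgeR and DESeq2, and 2 had an unadjusted p under 0.05, 1 in each direction.

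Among 6 carriers that move conjugates across the hepatocyte membrane, Slco1a1, an uptake carrier for organic anions, was higher, with a normalized count of 4224 ± 680.3 in SPI-fed rats and 2487 ± 734 in CAS-fed rats (SD, n = 8 each; log2 fold change 0.72, adjusted p = 0.0250 from limma). Abcb11, the bile salt export pump, was lower, at 11223.7 ± 1332 in SPI-fed rats and 14254 ± 2805 in CAS-fed rats (SD, n = 8 each; log2 fold change -0.51, adjusted p = 0.0164 from limma), and edgeR did not call it. Abcc2, which exports glucuronides into bile, had a log2 fold change of -0.37 and was not called (adjusted p = 0.322 from limma). The other 3 carriers were not called by limma, while DESeq2 called 2 of the 6 carriers higher, against 1 by limma and by edgeR.

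Of 14 receptors and sensors that act on these genes, 6 were in the table. Nr1i3, Ahr, Arnt, Ppara, Nr1h4 (FXR), Hnf4a, Esr1 and Nr3c1 had no row, so their levels are not known here. Of the 6, 0 were called by limma, edgeR or DESeq2 and 0 had an unadjusted p under 0.05. Nr1i2, the pregnane X receptor, had the smallest p and differed by 0.32 on the log2 scale (limma adjusted p = 0.369), and Nr1h3, Rxra, Keap1 and Nfe2l2 lay between -0.22 and -0.07. Of 17 textbook target genes of such receptors, 14 were in the table, without Cyp1a1, Cyp2b1 and Cyp3a23/3a1. Of the 14, 2 were higher by limma (Cyp1a2 at 1.15 and Cyp3a9 at 2.23), against 2 by edgeR and 4 by DESeq2. None of the 14 was lower by any of these tools (0 genes). At an unadjusted p under 0.05 from limma 5 were higher and 1 lower, beside 8.82% higher and 10% lower over all genes. Of 8 genes of methyl, acetyl and amino acid conjugation, 3 were higher by limma, Glyatl1 (log2 fold change 0.40), Tpmt (0.46) and As3mt (0.38), against 4 by edgeR and 5 by DESeq2. Of these 8 genes, 0 were lower by any of the tools. At an unadjusted p under 0.05 from limma 6 were higher and 0 lower, beside the same shares over all genes. Of 16 genes of glutathione conjugation, Gstt3 alone was lower (-0.55, adjusted p = 0.00940 from limma).

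Because Sult2a1 and other Sult2 genes are of female pattern in rats, genes of known sex pattern were set beside them. Of 2 further genes of female pattern, Cyp3a9 was higher and Cyp2c12 lower (log2 fold change -1.66, adjusted p = 0.00331 from limma), with every SPI-fed rat below every CAS-fed rat. Of 5 genes of male pattern, 0 were called by limma, edgeR or DESeq2. Higher levels at an unadjusted p under 0.05 from limma were found in 2, Cyp3a18 (1.06) and Cyp2c11 (0.63), beside 8.82% over all genes.

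Markers of cell types were set beside the tissue label. Of 8 hepatocyte markers, 5 were in the table, with the highest levels in Alb and Apob, and Ttr, Serpina1 and Cps1 had no row. Hpd had the smallest p and was called higher (log2 fold change 0.57, adjusted p = 0.0406 from limma). None of the 4 kidney markers listed had a row, and since liver genes lacked rows too, this says nothing of the tissue. Markers of Kupffer cells (7 genes, summed normalized counts of 3997 to 7335 in SPI-fed rats and 4945 to 7167 in CAS-fed rats) and of endothelial cells (7 genes, 2109.6 to 4445 and 935 to 3913 in the same order) had 0 called by limma and edgeR, while DESeq2 called 1 Kupffer cell marker, and 2 and 1 of them had higher levels at an unadjusted p under 0.05. All 5 stellate cell or fibroblast markers had log2 fold changes below 0 (median -0.81). Their summed counts were 3115 to 5407 in SPI-fed rats and 3661 to 5643 in CAS-fed rats. Of the 5 markers, 0 were called by limma, edgeR or DESeq2. Lower levels at an unadjusted p under 0.05 from limma were found in 3, beside 10% over all genes. One cholangiocyte marker (Krt19, -0.55), 1 lymphocyte marker (Nkg7, 0.05) and 1 small intestine marker (Fabp2, -0.14) could be tested and were not called. Of 12 acute phase genes, Fgg was higher (0.30) and Lbp lower (-1.23) by limma, while edgeR and DESeq2 each called 3 higher and 2 lower. At an unadjusted p under 0.05, 2 were higher and 3 lower, and Lcn2, at -2.33, was not called by limma (adjusted p = 0.0731). The part of these cell types in the differences of Ugt2a3, Ugt2b1 and Sult2a1 was not tested.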

How the data were processed

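Liver RNA of 8 SPI-fed and 8 CAS-fed rats was sequenced, 1 library per rat. The deposited signal values are gene counts scaled by the authors with a single size factor for each library, as DESeq2 does. Dividing a library by its smallest value returned whole reads (100% of values, tolerance 0.05). The deposited log2 fold changes and their errors, the deposited score (a Wald statistic), the deposited p-values and the authors' mean signal were not used. DESeq2, FastQC and Rnor_6.0 are named in the submitters' processing notes. The methods of the study name other software and quantile normalization of log2 values, and how reads shared by similar genes were counted is not given in the sources used here.

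Values were tested as log2(value + 1), quantile-normalized, with limma 3.58.1 (trend and robust, two-sided) in R 4.3.3, over the 8004 of 9645 genes that reached 10 in 8 or more libraries. A fold change on this scale depends on the pseudocount in low genes. Alternatives were pseudocounts of 0.5 and 8, the deposited scale, scaling to the upper quartile, a filter at 50 or none, edgeR 4.0.16 (quasi-likelihood, TMM) and DESeq2 1.42.0 on whole reads, the replicate number as a block, leaving out the libraries numbered 2 and 8, and leaving out each library in turn. The steps were tested on simulated data. Within each diet no library was a copy of another (lowest chi-square per gene 25.1 within SPI and 33.3 within CAS). Pairs of libraries across the diets were not compared.

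Full values are given for each gene called and for the gene with the smallest p in each subfamily, and from each list up to 3 genes with the smallest p. Counts of called genes in a list cover only the genes that had a row and passed the filter. Ces2j, Ces2i, Ugt2b17, Sult1a1, Sult2a2, Sult2a6 and Ces1d were given values after they were seen. The members and lists were chosen with earlier results of these data known. Of the 29 symbols, 28 matched a RefSeq symbol on GRCr8, and 25 had a promoter window, of which the 250 bases before the start were used. Sult4a1, Ugt1a5, Ugt2b17 and Ces2a had none. Coordinates other than those of the promoter windows are not given, since the builds differ. The result of 1 single gene is not reported here, though the counts include it.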

Additional observations from a re-analysis of the deposited data

Results flagged for a closer look

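In 3 of 58 groups of 8 rats, 1 rat lay far from the others of its diet by Dixon's test (the gap to the nearest rat over the whole range), where chance gives about 1 group in 20. Ces2h was lowest in SPI 7, at a normalized count of 63.3 against 129 to 213 in the other SPI-fed rats (ratio 0.579). Sult1c2a was highest in SPI 3, at 488 against 129 to 242 in the other SPI-fed rats (ratio 0.535). Ugt1a7c was lowest in CAS 1, at 66.3 against 79.5 to 90.1 in the other CAS-fed rats (ratio 0.588). The ratios were computed on the quantile-normalized log2 values.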

How the results depend on the processing

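Ugt2a3, Ugt2b1 and Sult2a1 were called in each of the 10 other fits and in each of the 16 that left out 1 library. Over the 10, the adjusted p ranged from 3.21e-07 to 0.0314, from 4.7e-05 to 0.0382 and from 0.000474 to 0.0367 for the 3 genes in that order. The members called higher numbered 5 on the deposited scale, 7 with upper-quartile scaling and 7 with DESeq2 (Sult1a1 and Ugt2b17 in each, with Ces2e and Ces2j in the last 2), and 3 to 5 without single libraries (5 without SPI 7, where Ces2e and Ces2j were added). Members called lower numbered 0 throughout (0 to 0 without single libraries). Of members at the study's thresholds, 5 to 9 were higher and 0 to 1 lower without single libraries, and 1 was lower on the deposited scale, 1 with upper-quartile scaling (Ces2g in both) and 2 without the libraries numbered 2 and 8 (Sult1b1 and Ugt2b37).

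Over all genes, 256 were higher with upper-quartile scaling (against 208 lower, 55.2% higher, where quantile normalization gave 158 and 232, 40.5% higher), 310 higher and 364 lower with DESeq2, and 45 higher and 67 lower without the libraries numbered 2 and 8. Leaving out single libraries gave 98 (without CAS 5) to 202 (without CAS 4) higher and 135 (without CAS 2) to 287 (without CAS 4) lower, with 100 higher without CAS 2 or CAS 3, 103 higher without SPI 6, and 152, 142, 148 and 152 lower without CAS 1, CAS 3, CAS 5 and SPI 3. With the replicate block, 97 were higher and 149 lower, and 4 members were called, Ces2e being added. The correlation of same-numbered libraries was -0.0950 to 0.0682, and 0 of 8 matched its own number best, so the numbers were not taken as pairs.

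Some uncalled genes changed sign. Sult2a6 was 0.15 on the deposited scale, 0.16 with upper-quartile scaling, 0.15 with edgeR, 0.15 with DESeq2 and 0.18 without the libraries numbered 2 and 8. Sult4a1 was 0.17 with edgeR, 0.18 with DESeq2 and 0.10 without those libraries, Ugt1a9 0.013 with a pseudocount of 8, 0.049 with edgeR, 0.045 with DESeq2 and 0.14 without those libraries, and Ces2h 0.042 without those libraries. Without single libraries the ranges were -0.10 to 0.25 for Ces1d, -0.093 to 0.15 for Ces2h, -0.37 to 0.13 for Sult4a1, -0.10 to 0.087 for Sult2a6, -0.19 to 0.00091 for Ugt1a7c and -0.11 to 0.18 for Ugt1a9. Ces2, Sult2a2 and Ugt1a8 did not pass the filter at 50. The cause of these shifts was not tested. Genes near the filter, such as Ces2 and Ugt1a8, are limited by their few reads.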
